A study of Mus musculus with 6 samples.

Results

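The comparison set the 3 libraries labelled replicate 1 against the 3 labelled replicate 2, out of 6 RNA sequencing libraries in the series, within each of 3 sorted cell populations. Its members were chosen by the replicate number in the sample titles alone. All cells came from a mouse embryonic stem cell line with a Venus reporter on 1 allele of Foxa2 and a Cherry reporter on both alleles of Sox17, so every group carried both reporters. The d0 population was sorted at day 0 as negative for both reporters. The d3F population was sorted at day 3 of differentiation with Wnt3a and Activin A as Venus positive and Cherry negative, and d5FS at day 5 as positive for both. The line had been kept on feeder cells, then depleted of them and passaged on gelatine before the differentiation, also on gelatine. Each population had 1 library in each replicate set, and the study describes the replicates as independent biological experiments. The labels give the same protocol for all 6 libraries, namely Trizol extraction with a DNase step on the column, ribosomal RNA depletion and a TruSeq library kit. A supplementary sample list of the study calls 1 library of each population mRNA and the other totRNA, without a replicate number beside these names. Culture, sort and library preparation cannot be told apart as sources of a difference between the replicate sets.

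Several RNA classes are known to respond to how a library is made. Replication-dependent histone mRNAs, from the large histone gene clusters, end in a conserved stem-loop and carry no poly(A) tail, whereas histone variant mRNAs are polyadenylated. Small nucleolar RNAs (snoRNAs) guide the modification of ribosomal RNA and are cut out of introns, and the RNA subunits of RNase P and RNase MRP are stable, untailed RNAs that process tRNA and ribosomal RNA. Messages for ribosomal proteins are short and abundant. Long mRNAs and nuclear noncoding RNAs such as Malat1 are sensitive to RNA integrity and to the size of the fragments that enter a library.

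Sequences of 2 of these classes are shown because the replicate sets differed in them. Box C/D snoRNAs carry a C box near the 5′ end and a D box (CTGA) near the 3′ end. Snord22 lies at chr19:8725866-8725991 on the plus strand (GRCm38, GENCODE vM21) and is 126 bases long. Snord15b lies at chr7:99479563-99479707 on the minus strand and is 145 bases long. Capitals mark the last CTGA and, in Snord15b, the C box letters TGATGA, which Snord22 does not hold on this strand.
Snord22: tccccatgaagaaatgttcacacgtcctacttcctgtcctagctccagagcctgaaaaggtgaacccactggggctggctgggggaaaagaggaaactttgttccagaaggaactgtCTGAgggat
Snord15b: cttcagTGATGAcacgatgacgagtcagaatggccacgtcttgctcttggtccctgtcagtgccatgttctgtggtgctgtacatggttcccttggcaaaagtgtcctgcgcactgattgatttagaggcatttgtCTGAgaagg

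Capitals in the histone sequences mark the 16-base stem-loop motif GGNNNTTTTNANNNCC, searched on the transcript strand. Of the 58797 coding transcripts in GENCODE vM21, 606 (1.03%) held the motif anywhere. Hist1h2ap lies at chr13:21833026-21833507 on the minus strand, Hist1h2bk at chr13:22035870-22036345 on the plus strand, and Hist2h2aa1 at chr3:96245497-96246082 on the plus strand. H2afx, at chr9:44334694-44336077 on the plus strand, is the histone variant known to be made in both a stem-loop and a polyadenylated form.
Hist1h2ap: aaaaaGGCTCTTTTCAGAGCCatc
Hist1h2bk: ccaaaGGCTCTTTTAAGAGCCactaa
Hist2h2aa1: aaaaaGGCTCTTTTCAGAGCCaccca
H2afx: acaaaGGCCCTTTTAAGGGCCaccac

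Library totals were close within each population. They ran from 16457729 to 22768686 expected counts per sample, an expected count being the number of reads that the RSEM program assigned to a gene. Population markers followed the labels in both sets. The summed level of Pou5f1, Nanog, Sox2 and Zfp42, factors of embryonic stem cells, was 1219 and 2496 CPM in d0 replicates 1 and 2 and 107 and 82.6 in d5FS. The endoderm markers Sox17, Foxa2, Gata4, Cxcr4 and Hnf4a summed to 3.42 and 6.10 CPM in d0 and to 309 and 623 in d5FS. CPM are counts relative to the library total, with totals scaled by TMM (trimmed mean of M-values) factors. Fragments were shorter in replicate 2 of each population. The mean fragment length, read from the difference between gene length and effective length in the deposited tables, was 212.2 and 195.1 bases in d0 replicates 1 and 2, 204.2 and 196.0 in d3F, then 198.9 and 192.2 in d5FS.

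The replicate number took up a share of the variation similar to what was left over, with fewer degrees of freedom. Of the sum of squares of log2 CPM over the 14539 genes tested, population held 75.74%, the replicate number 12.96% and the remainder 11.3%. The replicate number was the largest of these parts in 3052 genes and population in 10212. The replicate part has 1 degree of freedom, and population and the remainder have 2 each. Their raw sizes are therefore not directly comparable. On a principal component with 13.11% of the variance, all 3 replicate 1 libraries had negative scores (-49.06, -7.19 and -38.87) and all 3 replicate 2 libraries positive ones (33.27, 37.76 and 24.1).

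No gene was called between the sets by the quasi-likelihood test of edgeR at an adjusted p under 0.05 (0.0% of 14539 genes, population as a block). The smallest adjusted p was 0.0728, and 1150 genes lay under 0.1. The direction was the same in all 3 pairs for 47.8% of genes. At an unadjusted p under 0.05, 1774 genes (12.2%) were higher in replicate 2 and 1745 (12.0%) lower, in all 3519 (24.2%). DESeq2, with the same design, called 740 of 12284 genes higher (6.02%) and 772 lower (6.28%), 12.3% in all. Without the filter on low counts edgeR called 509 genes, 227 higher and 282 lower. With 3 pairs, an exact permutation test over sign flips of a single value cannot give a two-sided p under 0.25, so no such test was used. A fit with 2 residual degrees of freedom gave 0 calls, and the differences below are therefore reported as values, with the counts of both tools.

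As a description with no test, 59 genes (0.406%) were higher by over 1 on the log2 scale in replicate 2 in each of the 3 pairs, and 100 (0.688%) were lower. The filter on low counts could be passed through the libraries of 1 set alone. Genes on the higher side had a median length of 1842 bases and a median GC content of 54.1%. Those on the lower side had 3676 bases and 46.7%, and all genes tested had 2818 bases and 50.8%. Of the 159 genes, 14 lay on the X chromosome, 12 of them lower, while 492 of all genes tested lay there.

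Lars2, which encodes the mitochondrial leucyl-tRNA synthetase, differed most among the genes lower in replicate 2. Its level was 7863 CPM in d0 replicate 1 and 102 in replicate 2, 2782 and 301 in d3F, then 599 and 81.2 in d5FS. Every replicate 1 library lay above every replicate 2 library. The fitted log2 difference, replicate 2 minus replicate 1, was -4.02 ± 0.69 (SE, adjusted p = 0.0731 by edgeR and 0.000616 by DESeq2). Without the d0 pair Lars2 was the only gene that edgeR called, at -3.06 with an adjusted p of 0.0488. Of the 11217 distinct 50-base stretches of its GENCODE transcripts, 22 (0.2%) were also found in transcripts of other genes. Only GENCODE transcripts were searched, so sequence shared with RNAs outside that set could not be found.

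Rps16, a protein of the small ribosomal subunit, was the opposite case. Its level was 80.1 and 1444 CPM in d0 replicates 1 and 2, 157 and 1245 in d3F, then 72.7 and 1529 in d5FS. The sets did not overlap. The fitted log2 difference was 3.86 ± 0.31 (adjusted p = 0.0728 by edgeR and 2.27e-36 by DESeq2). Of its 1263 distinct 50-base stretches, 441 (34.9%) were shared with other genes, 392 of them with the pseudogene Rps16-ps2. Mrpl12, a protein of the mitochondrial ribosome, was similar, with 33.3 and 182 CPM in d0, 36.7 and 160 in d3F, then 12.6 and 105 in d5FS, a log2 difference of 2.54 ± 0.22 (adjusted p = 0.0728 by edgeR and 1.81e-20 by DESeq2). Rps16 and Mrpl12 were the 2 genes that edgeR called when DESeq2 size factors replaced TMM, each at an adjusted p of 0.0499.

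Hist1h2ap, a histone H2A gene, had 0, 81 and 0 counts in replicate 1 of d0, d3F and d5FS, against 1634, 1495 and 847 in replicate 2. The fitted log2 difference of 6.72 ± 1.06 (adjusted p = 0.0731) depends on the prior count, since 2 libraries were at 0. Its sequence is almost all shared. Of 433 distinct 50-base stretches, 403 (93.1%) also occurred in Hist1h2ao. Hist1h2ao itself held 742, 718 and 251 CPM in replicate 1 and 554, 571 and 393 in replicate 2 of d0, d3F and d5FS, a log2 difference of -0.04 ± 0.24 (edgeR adjusted p = 0.941). Summed over both copies, the level was 741.9 and 638.1 CPM in d0, 721.2 and 646.0 in d3F, then 250.6 and 441.4 in d5FS, so the sum was lower in replicate 2 in 2 pairs and higher in 1. The marker thus separated the sets only where the copies were counted apart. Rn45s, the ribosomal RNA precursor, took 4.262% to 6.202% of the counts and did not separate them. Its log2 difference was 0.02 ± 0.16 (edgeR adjusted p = 0.962), with pair differences of -0.31, 0.16 and 0.20.

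**Figure D1:**
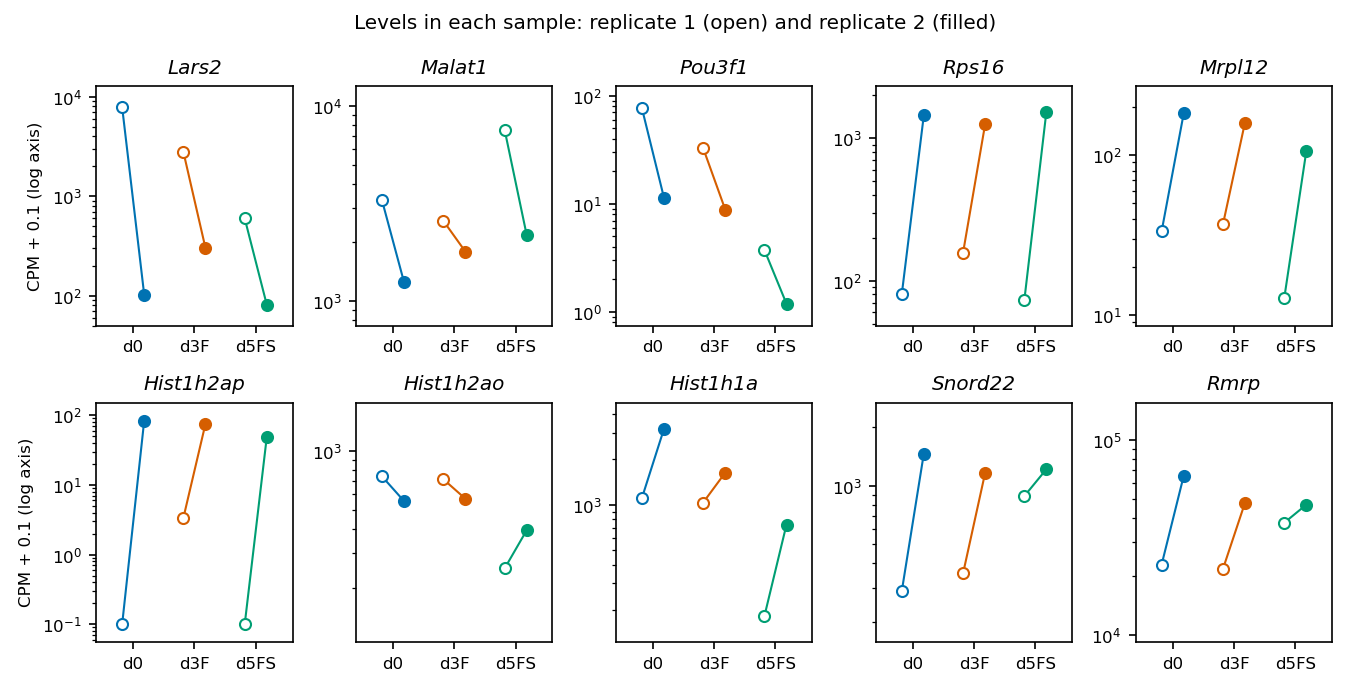
CPM plus 0.1 (log axis, a separate range for each gene) of 10 genes in the 6 libraries, with replicate 1 as open and replicate 2 as filled circles and a line joining each population's pair. Lars2, Malat1 and Pou3f1 are lower and Rps16, Mrpl12, Hist1h1a, Snord22 and Rmrp higher in replicate 2 of every pair, while Hist1h2ap and its copy Hist1h2ao go different ways in d0 and d3F.

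Shared sequence also touched other genes with large differences in single pairs. Eif3j2, a translation initiation factor subunit, had 97.0 and 0.101 CPM in d3F replicates 1 and 2, and 91.8% of its 50-base stretches occurred in other genes, with Eif3j1 first among them. Summed over Eif3j1 and Eif3j2 the levels were 119.4 and 89.89 CPM in d3F, 151.8 and 119.8 in d0, and 82.09 and 71.94 in d5FS. Amd1, an enzyme of polyamine synthesis, had 0.0 and 86.2 CPM in d0 and shared 78.1% of its stretches, whereas Amd1 and Amd2 together had 412.8 and 334.5 CPM there. The histone genes Hist1h2bq and Hist1h2br had the same count in every library. Gbp2, an interferon-induced GTPase, was among the 3 genes with the widest gap in the d5FS pair, at 50.2 and 2.92 CPM, but stood at 58.3 and 71.0 in d3F.

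Replication-dependent histone genes were higher in replicate 2 as a group. Of 68 listed, 67 were tested, and 62 of these had a log2 difference above 0. At an unadjusted p under 0.05, 46 were higher and 0 lower, against 12.2% of all genes on the higher side. DESeq2 called 37 higher and 0 lower (6.02% and 6.28% of all genes). The median log2 difference was 0.76, beside 0.01 over all genes tested, and it was 0.88 in d0, 0.28 in d3F and 1.07 in d5FS. The summed level was 31147 and 56752 CPM in d0 replicates 1 and 2, 31168 and 40255 in d3F, then 12261 and 26011 in d5FS. Without Hist1h2ap the median was 0.75.

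Each histone family took part. Of 13 H4 genes, all had a difference above 0, with a median of 0.89. At an unadjusted p under 0.05, 12 were higher (12.2% of all genes). The medians were 1.04 over 6 linker histone (H1) genes, 0.80 over 18 H2A genes, 0.56 over 19 H2B genes and 0.74 over 11 H3 genes. Hist1h1a, a linker histone, was at 1107 and 3191 CPM in d0, 1034 and 1634 in d3F, then 182 and 738 in d5FS, a log2 difference of 1.40 ± 0.27 (edgeR adjusted p = 0.0731). Hist2h2bb had 1657 and 2900, 1426 and 2098, and 366 and 1175 CPM in the same order. In both genes the d5FS libraries were the lowest of their set, and replicate 2 was higher in all 3 pairs.

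Hist1h2bk, whose stem-loop is printed above, had a log2 difference of 1.07 ± 0.18 (edgeR adjusted p = 0.0731), and Hist2h2aa1 one of 0.92 ± 0.16 (edgeR adjusted p = 0.0731). The testis linker histone gene Hist1h1t differed by 2.25 ± 0.41 at low levels, with 5.0 and 34.3 CPM in d0 and 0.567 and 4.07 in d5FS. The smallest difference belonged to Hist2h2be, at -0.29 ± 0.38 (edgeR adjusted p = 0.68), whose deposited length of 2618 bases far exceeds the class median of 472. Of the tested cluster histones with a GENCODE coding transcript, 43 held the stem-loop motif, with a median difference of 0.76. The other 23 did not, with a median of 0.80. A transcript model that stops short of the message's end cannot hold the motif. The split therefore does not show which genes lack a stem-loop. Where the model ended at most 100 bases after the motif (22 genes) the median was 0.88, and where it ran further (21 genes) it was 0.67.

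Histone variants had a smaller median, a gap that was not tested. Of 11 genes tested, 9 had a log2 difference above 0, and the median was 0.44. At an unadjusted p under 0.05, 4 were higher (12.2% of all genes). DESeq2 called 1 of them higher, beside 6.02% of all genes. H2afz, the variant found at promoters, was at 1473 and 2587 CPM in d0, 1482 and 1491 in d3F, then 594 and 878 in d5FS. H2afx, with the stem-loop printed above, differed by 0.66 ± 0.26 (edgeR adjusted p = 0.188), H2afj by 0.72 ± 0.15 (edgeR adjusted p = 0.0758), and H2afy2, a macroH2A gene, by -0.56 ± 0.26 (edgeR adjusted p = 0.246). The d3F pair showed a median of 0.01 over these variants. Genes of DNA replication, which also mark S phase, had a median of 0.25 over 16 genes. In d0, d3F and d5FS the median was 0.26, 0.03 and 0.66. At an unadjusted p under 0.05, 4 of the 16 genes were higher and 0 lower (12.2% and 12.0% of all genes). Their part in the histone difference was not tested.

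**Figure D2:**
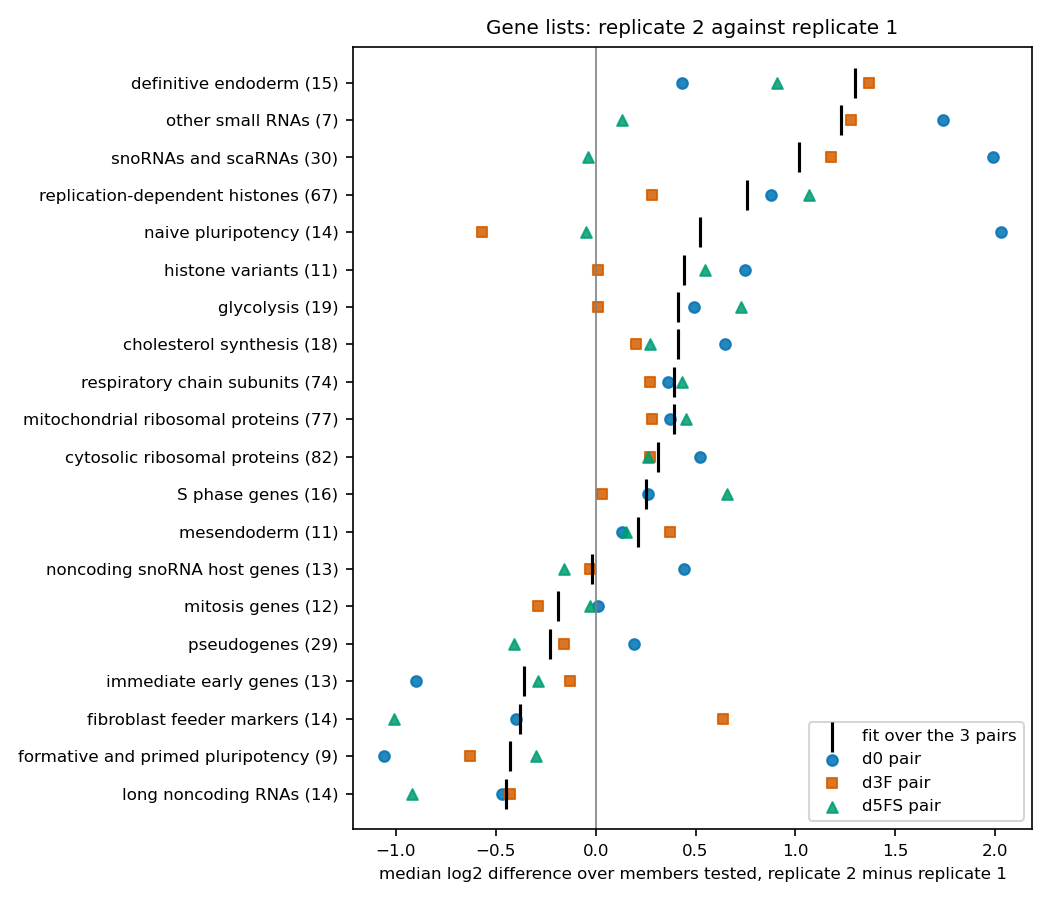
Median log2 difference, replicate 2 minus replicate 1, over the tested members of each gene list (number in brackets), with symbols for the d0, d3F and d5FS pairs and a bar for the fit over the 3 pairs. The snoRNA list and the other small RNAs are far to the right in d0 and d3F and near 0 in d5FS. Cluster histones are positive in all 3 pairs, and naive pluripotency genes are at 2.03 in d0 but at -0.57 in d3F. The miRNA loci are not drawn, since too few of them were tested.

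Small noncoding RNAs separated the sets in d0 and d3F and hardly in d5FS. Of 119 snoRNAs and the related scaRNAs (which act on spliceosomal RNA), 30 passed the filter on low counts. A member had to reach a minimum level in 2 libraries of any population or set, so it could pass through 1 replicate set alone. These 30 therefore do not stand for the class. In d0 all 30 were higher in replicate 2 and 28 of them by over 1 on the log2 scale, against 9.47% of all genes. In d3F 29 were higher, 20 by over 1 (5.13% of all genes), and 0 were lower by over 1 (6.21% of all genes). In d5FS 15 were higher, 1 by over 1 (6.85% of all genes), and 5 were lower by over 1 (8.74% of all genes). The medians were 1.99, 1.18 and -0.04. In the fit 17 were higher and 0 lower at an unadjusted p under 0.05 (12.2% and 12.0% of all genes), DESeq2 called 12 higher and 0 lower (6.02% and 6.28%), and the median was 1.02. Without the d0 pair that median was 0.54, and without the d5FS pair 1.68.

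Snord22, printed above, was at 288 and 1457 CPM in d0, 355 and 1159 in d3F, then 883 and 1213 in d5FS, a log2 difference of 1.51 ± 0.35 (edgeR adjusted p = 0.0782). Snord15b was at 167 and 1036, 209 and 830, and 707 and 994 CPM in the same order, a log2 difference of 1.72 ± 0.40 (edgeR adjusted p = 0.078). In both snoRNAs the d5FS replicate 1 library lay far above the other 2 libraries of its set. Snord17 was at 1053 and 2320 CPM in d0 but at 3480 and 2807 in d5FS, where the order turned. Snora44, a box H/ACA snoRNA named after its values were seen, was at 2.81 and 27.3, 2.31 and 15.8, and 4.25 and 8.54 CPM. The largest difference among the snoRNAs was that of Snora28, at 2.53 ± 0.59, and the smallest that of Snora75, at -0.16 ± 0.87, both with under 3 CPM in every library. By kind, box C/D members had a median of 1.60 (4 tested of 74 listed), box H/ACA members 1.00 (23 of 36) and scaRNAs 0.75 (3 of 9).

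The RNase MRP and RNase P RNAs followed the same order. Rmrp held 23010 and 65430 CPM in d0, 21840 and 47650 in d3F, then 37650 and 46600 in d5FS, a log2 difference of 0.98 ± 0.24 (edgeR adjusted p = 0.083). Rpph1, the RNase P RNA, held 15700 and 52280, 16220 and 31410, and 22530 and 26840 CPM, a log2 difference of 0.98 ± 0.27 (edgeR adjusted p = 0.105). Both were higher in replicate 2 in all 3 pairs, and the gap narrowed in d5FS. The vault RNA Vaultrc5 and Rprl3, an RNase P-like RNA gene, each had a difference of 1.23, with 220 and 205 CPM and 304 and 333 CPM in d5FS. Terc, the telomerase RNA, was at 144 and 279 CPM in d0 and at 99.1 and 68.3 in d5FS, a log2 difference of 0.13 ± 0.28. Of 14 RNAs in this list 7 were tested, with a median of 1.23. DESeq2 called 5 higher and 0 lower (6.02% and 6.28% of all genes). Without the d0 pair the median was 0.65.

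The spliced noncoding genes that carry snoRNAs in their introns had smaller values. Over 13 tested host genes the median was -0.02 in the fit and 0.44, -0.03 and -0.16 in d0, d3F and d5FS, with 11 above 0 in d0. At an unadjusted p under 0.05, 0 were higher and 0 lower (12.2% and 12.0% of all genes). DESeq2 made 0 calls (6.02% of all genes higher and 6.28% lower). Gas5, for example, was at 219 and 280 CPM in d0, 247 and 261 in d3F, then 210 and 149 in d5FS. These pair medians had the same order as those of the snoRNAs, and the difference between the lists was not tested.

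Small RNA genes took a different share on each deposited scale. They held 4.374% and 11.351% of the expected counts in d0 replicates 1 and 2, 4.56% and 8.443% in d3F, then 7.496% and 8.248% in d5FS. Most of these counts belonged to Rmrp and Rpph1. In d5FS their list summed to 60867 and 74097 CPM, whereas the snoRNA list summed to 9088 and 8877. On the TPM scale (transcript shares, in which counts are divided by effective length and set to one fixed total) small RNA genes held 52.88% and 70.75%, 53.38% and 67.12%, and 70.09% and 76.2%. Coding genes held 45.68% and 28.48% of TPM in d0, 45.23% and 31.92% in d3F, then 28.92% and 23.13% in d5FS. The median difference over coding genes on the log2(TPM + 0.01) scale was -1.07, -0.74 and -0.58 in the d0, d3F and d5FS pairs. The d5FS values rested on Snord22. Its 126 bases are shorter than the mean fragment, its TPM was 0 in the 5 other libraries, which held 6559 to 28432 counts of it, and it was 330392.78 in d5FS replicate 2, or 33.04% of the total there. With TPM rescaled to the total without Snord22, small RNA genes held 64.46% in d5FS replicate 2, below the 70.09% of replicate 1, and coding genes 34.54%. The median difference over coding genes in that pair was then -0.01, and the d0 and d3F values did not move.

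**Figure D3:**
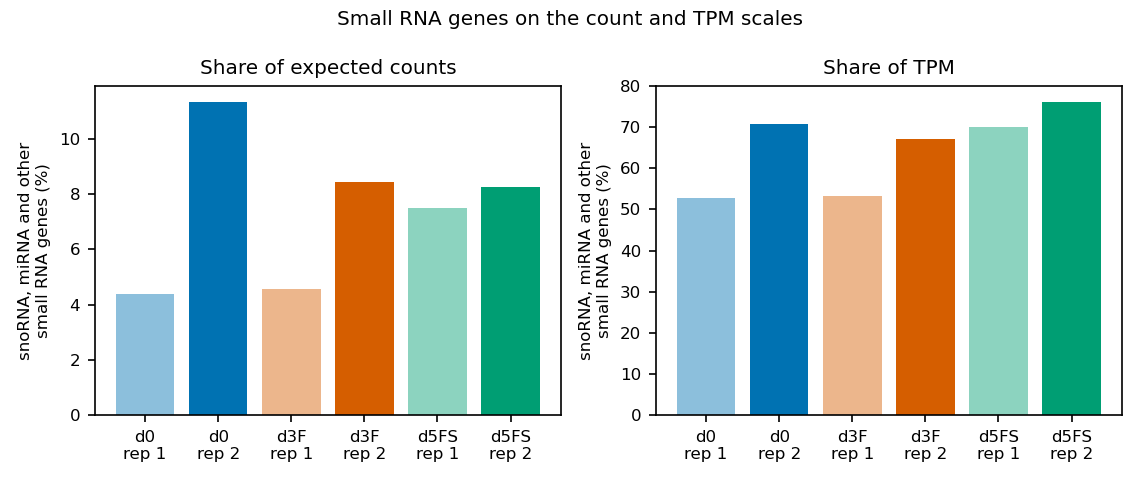
Share (%) of expected counts (left) and of TPM (right) held by snoRNA, miRNA and other small RNA genes in each library, pale for replicate 1 and full colour for replicate 2. The summed share of counts, between 4.374% and 11.351% and mostly from Rmrp and Rpph1, is higher in replicate 2 of each population. So is the share of TPM, between 52.88% and 76.2%, but without Snord22 it is 64.46% in d5FS replicate 2, below replicate 1.

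Genes for cytosolic ribosomal proteins had small positive differences. Of 82 genes, all tested, 68 had a log2 difference above 0, 54 were higher in all 3 pairs (24.7% of all genes) and 3 lower in all 3 pairs (23.1% of all genes). At an unadjusted p under 0.05, 35 were higher and 0 lower (12.2% and 12.0% of all genes). DESeq2 called 23 higher and 0 lower (6.02% and 6.28% of all genes). The median was 0.31, at 0.52, 0.27 and 0.26 in d0, d3F and d5FS, and it was 0.30 without Rps16. Rplp0, a stalk protein, was at 4309 and 5032 CPM in d0, 3091 and 4487 in d3F, then 2855 and 4536 in d5FS. Rpl13a was at 2137 and 4833, 1982 and 3487, and 2858 and 4291 CPM, a log2 difference of 0.86 ± 0.17 (edgeR adjusted p = 0.0731). Rpl29 had the smallest difference, -0.32 ± 0.19 (edgeR adjusted p = 0.346). Rps16 thus stood apart from its class, whose next largest difference was 1.28.

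Other short messages had a like shift. Over 77 genes for mitochondrial ribosomal proteins the median was 0.39, with 33 higher and 1 lower at an unadjusted p under 0.05 (12.2% and 12.0% of all genes). Over 74 genes for respiratory chain subunits it was 0.39, with 34 higher and 1 lower. Cox4i1, of cytochrome c oxidase, was at 355 and 697 CPM in d0, 312 and 562 in d3F, then 351 and 552 in d5FS, and it had the largest difference in its list, 0.82 ± 0.16 (edgeR adjusted p = 0.0731). Uqcrq of complex III was on the other side, at -0.49 ± 0.20 (edgeR adjusted p = 0.188). Among the mitochondrial ribosomal proteins the differences ran from Mrps15, at -0.87 ± 0.23 (edgeR adjusted p = 0.0936), to Mrpl12.

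On the TPM scale the medians of these coding lists were negative, as was that of all coding genes. The median of the 67 cluster histones was -0.13 and that of the 82 cytosolic ribosomal proteins -0.52, against -0.79 over the 13917 coding genes tested. Relative to that coding median the histones stood at 0.66, the ribosomal proteins at 0.27, and both mitochondrial lists at 0.33. Rescaled without Snord22, the median of the histones was 0.06, that of the ribosomal proteins -0.33 and that of coding genes -0.60, and the relative values were the same. The sign of the histone median over the 3 pairs on this scale thus depended on 1 gene in 1 library. Within pairs, the histone median was -0.35 in d0 and -0.5 in d3F either way. In d5FS it was 0.39, and 0.97 without Snord22.

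The difference ran with transcript length over all coding genes. In the shortest decile of coding genes (1392 genes, median 882.5 bases) the median log2 difference was 0.32, and in the longest (1392 genes, median 7563.5 bases) it was -0.36. It went down from each decile to the next in the fit, a span of 0.68. The 2 ends were at 0.38 and -0.46 in d0, 0.20 and -0.22 in d3F, then 0.33 and -0.40 in d5FS. At an unadjusted p under 0.05, 29.5% of the shortest decile were higher in replicate 2 and 3.74% lower, while 2.66% of the longest decile were higher and 32.8% lower. Coding genes are not independent replicates, so the trend carries no p. On the TPM scale, which divides by effective length, the span was 0.63, or 0.64 without Snord22. A gene's effective length nearly cancels between the 2 libraries of a pair, so this scale could not have removed the trend.

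GC content, examined after the length trend was seen, ran with the difference too. The median was -0.38 in the lowest decile (median GC 40.5%), 0.25 in the eighth (55.5%) and 0.21 in the highest (60.2%). Both properties counted when set against each other. With coding genes split into 3 classes by each property, the median in the lowest GC class was 0.00 for the shortest and -0.44 for the longest genes, and in the highest GC class it was 0.34 and 0.10. Gene span, introns included, gave 0.23 in the shortest decile and -0.27 in the longest. GC content was known for 99.5% of the coding genes tested and span for 95.8%.

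**Figure D4:**
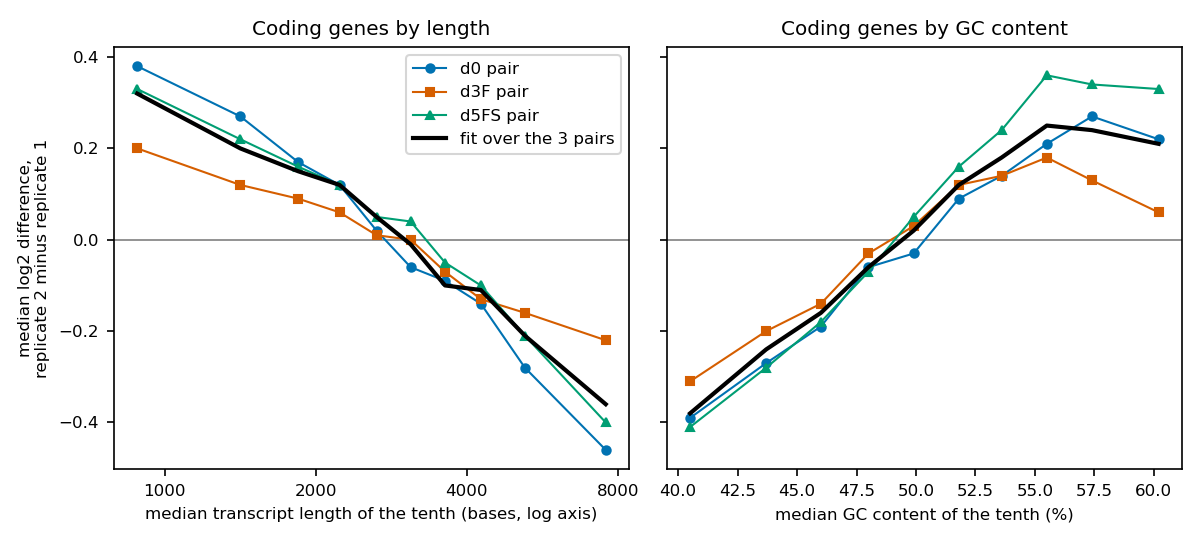
Median log2 difference, replicate 2 minus replicate 1, in deciles of coding genes by transcript length (left, log axis) and by GC content (right), for each pair and for the fit. All 3 pairs go from positive values in short genes to negative values in long genes, 0.32 to -0.36 in the fit, and from negative values at low GC content to positive values above a GC content of 50.8%.

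Long noncoding RNAs lay on the lower side. Of 14 tested, 10 had a difference at or under 0, 5 were lower and 0 higher at an unadjusted p under 0.05 (12.0% and 12.2% of all genes), and the median was -0.45. DESeq2 called 5 lower and 0 higher (6.28% and 6.02%). The median was -0.76 without the d3F pair and -0.73 both with at least 10 counts in every sample and without the population block. Malat1, a nuclear speckle RNA of 6982 bases, was at 3280 and 1249 CPM in d0, 2580 and 1794 in d3F, then 7553 and 2186 in d5FS, a log2 difference of -1.24 ± 0.25 (edgeR adjusted p = 0.074). Tug1 was at 94.1 and 50.2, 119 and 85.1, and 155 and 70.6 CPM, a difference of -0.84 ± 0.18 (edgeR adjusted p = 0.0758). Xist, the X inactivation RNA, was at 11.2 and 2.92, 3.82 and 2.78, and 9.98 and 2.64 CPM, a difference of -1.45 ± 0.39 (edgeR adjusted p = 0.10). H19, an imprinted RNA, went the other way in d0 and d3F and lower in d5FS (1487 and 838 CPM). Mir17hg, a microRNA host transcript, was at 31.9 and 19.9, 33.7 and 19.4, and 26.9 and 12.2 CPM, and only 2 of the 1121 microRNA entries passed the filter.

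Cenpf, a mitotic kinetochore gene of 11122 bases, shows the lower side among coding genes, with 132 and 78.2 CPM in d0, 168 and 84.99 in d3F, then 171 and 78.8 in d5FS, a log2 difference of -0.95 ± 0.16 (edgeR adjusted p = 0.0731). Aurka, a mitotic kinase gene of 1904 bases, was on the other side, with 95.3 and 190, 95.3 and 152, and 46.7 and 186 CPM, a difference of 1.22 ± 0.27 (edgeR adjusted p = 0.0758). The 12 mitosis genes had a median of -0.19, with 2 higher and 3 lower at an unadjusted p under 0.05 (12.2% and 12.0% of all genes).

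More genes had a count in replicate 2. Genes with at least 1 count numbered 16977 and 18649 in d0 replicates 1 and 2, 16840 and 18354 in d3F, then 16773 and 19859 in d5FS, of 24054 listed. A count in all 3 replicate 2 libraries and none in replicate 1 was found for 479 genes (1.99%), and the reverse for 7 (0.0291%). After all libraries were thinned to the smallest total these numbers were 386 and 8. The 479 genes had a median of 6.0 counts over the 3 libraries together, and only Nup62-il4i1, a readthrough locus, had more than 30.

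Genes for odorant and vomeronasal receptors made up 111 of the 479. These sensory receptors are known to be silent outside the olfactory organs, and the group was chosen after its values were seen. Of 1452 such genes, 68 and 497 had a count in d0 replicates 1 and 2, 40 and 440 in d3F, then 52 and 879 in d5FS. Thinned to equal depth, the numbers were 58 and 398, 25 and 361, and 52 and 834. In total they held 165 and 765 counts in d0, 108 and 610 in d3F, then 231 and 1553 in d5FS. The sets did not overlap, and the counts were few. The source of these counts was not tested.

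**Figure D5:**
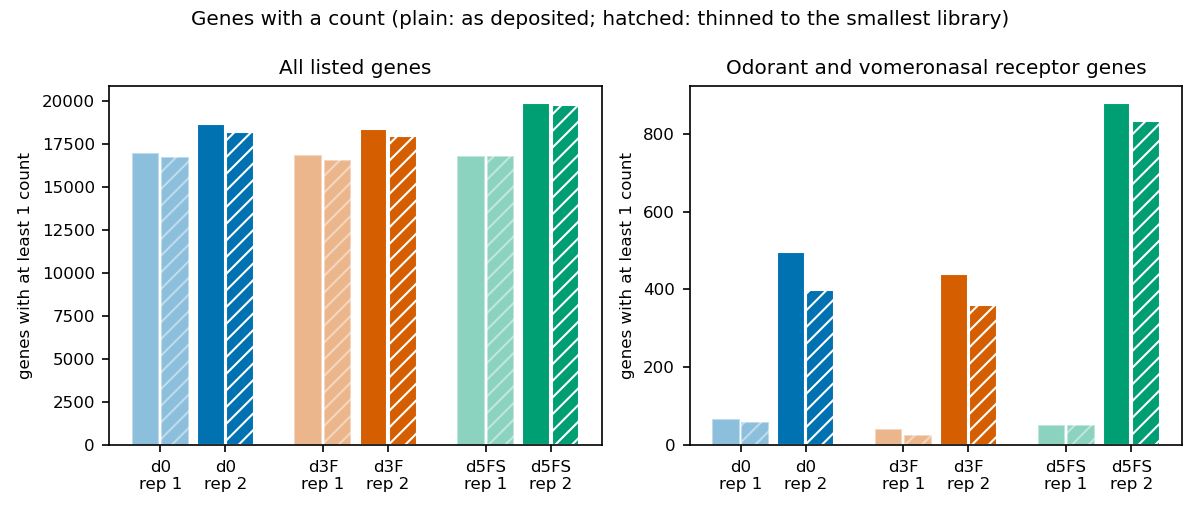
Number of genes with at least 1 count in each library, for all 24054 listed genes (left) and for the 1452 odorant and vomeronasal receptor genes (right), pale for replicate 1 and full colour for replicate 2, plain as deposited and hatched after thinning. Replicate 2 is higher in each population, and for receptor genes it lies at 440 to 879 against 40 to 68.

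Some differences were specific in size to a population, and here fewer cells of a type and less RNA per cell cannot be told apart. In d0, naive pluripotency genes were higher in replicate 2 in all 14 of 14 cases, 12 of them by over 1 on the log2 scale (9.47% of all genes), with a median of 2.03. Dppa5a, an RNA-binding protein of pluripotent cells, was at 595 and 4448 CPM, the transcription factor Zfp42 at 132 and 531, Nanog at 74.0 and 304, and Tfcp2l1 at 50.4 and 200. In d3F and d5FS the medians were -0.57 and -0.05, and Nanog was at 99.96 and 56.4 CPM and at 13.8 and 13.9. Formative and primed pluripotency genes had a median of -1.06 in d0, where 5 of 9 were lower by over 1 (11.5% of all genes). Fgf5, a growth factor of the epiblast, was at 12.5 and 1.18 CPM in d0, and Otx2 at 28.6 and 6.31. In that pair 3 of the 9 were above 0, among them Dnmt3a, at 87.6 and 113.5 CPM. The most abundant of the 9, Dnmt3b, was at 877 and 565 CPM there. The difference between populations was not tested.

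Nr0b1, a nuclear receptor of naive cells, was higher in replicate 2 in all 3 pairs, with 13.2 and 73.5, 3.13 and 5.81, and 2.38 and 22.0 CPM, a log2 difference of 2.21 ± 0.43 (edgeR adjusted p = 0.0731). Pou3f1, a POU factor of the epiblast, was lower in all 3, with 76.5 and 11.3, 32.5 and 8.74, and 3.63 and 1.09 CPM, a difference of -2.19 ± 0.27 (edgeR adjusted p = 0.0731). T, the primitive streak factor Brachyury, was lower in all 3 as well, at 169 and 69.1 CPM in d3F, with a difference of -1.53 ± 0.20 (edgeR adjusted p = 0.0731). It had the lowest value of the 11 mesendoderm genes, whose median was 0.21, or -0.15 without the d5FS pair. At an edgeR unadjusted p under 0.05, 2 of the 11 were higher and 1 lower (12.2% and 12.0% of all genes).

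Definitive endoderm genes were higher in replicate 2 from d3F on. Over 15 genes the median was 1.3 in the fit and 0.43, 1.37 and 0.91 in the pairs, with 8 higher and 2 lower at an unadjusted p under 0.05 (12.2% and 12.0% of all genes). The fit median was 0.71 without the d3F pair. With fewer members tested, it was 0.36 over 10 genes without the d5FS pair and 0.52 over 7 with at least 10 counts in every sample. Gata4, an endoderm factor, was at 16.6 and 79.2 CPM in d3F and at 156 and 335 in d5FS, a log2 difference of 1.5 ± 0.28 (edgeR adjusted p = 0.0731). Dkk1, a secreted Wnt inhibitor, was at 9.62 and 25.0 CPM in d3F and at 39.7 and 143 in d5FS, a difference of 1.76 ± 0.25 (edgeR adjusted p = 0.0731). Epcam, an epithelial adhesion gene, was lower in all 3 pairs, with 264 and 196, 226 and 97.7, and 280 and 141 CPM, a difference of -0.88 ± 0.19 (edgeR adjusted p = 0.0758). Ttr, a secreted carrier protein, was at 10.7 and 20.2 CPM in d5FS. The fibroblast feeder markers (14 tested of 15 listed) summed to 52.7 and 38.7 CPM in d0, 107 and 224 in d3F, then 324 and 237 in d5FS, with medians of -0.40, 0.64 and -1.01. Col1a2, a collagen, was the exception in d5FS among the abundant ones, at 110 and 156 CPM, beside 59.1 and 17.1 for Col3a1. The part of such cells in the endoderm values was not tested.

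Metabolic lists had positive medians in the fit. Of 19 glycolysis genes 9 were higher and 0 lower at an unadjusted p under 0.05 (12.2% and 12.0% of all genes), with a median of 0.41. In the d3F pair that median was 0.01, with 10 of 19 above 0. Hk1, a hexokinase, was at 9.69 and 30.8, 21.8 and 65.3, and 27.3 and 69.6 CPM, a log2 difference of 1.53 ± 0.17 (edgeR adjusted p = 0.0731). Of 18 genes for cholesterol synthesis 9 were higher and 0 lower, with a median of 0.41, and Fdps was at 133 and 470 CPM in d0 and at 334 and 465 in d5FS. Over 13 immediate early genes the median was -0.36, with 0 higher and 1 lower.

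Among the genes that differed by over 1 in every pair, those with a mean of at least 1 CPM and the largest differences are named here after their values were seen. On the higher side they were Hist1h2ap, Dux, Rps16, Apoc2, Mrpl12, Meox1, Hist1h1t, Pgam2, Slfn2 and Dkk1. Dux, a transcription factor gene repeated in many copies, whose counts are uncertain for that reason, was at 0.0877 and 2.31, 0.0812 and 0.96, and 0.114 and 3.33 CPM, a log2 difference of 4.34 ± 0.59 (edgeR adjusted p = 0.0731). On the lower side they were Lars2, Eif3j2, Cysltr1, Sema6a, Fndc3c1, Galnt14, Sp8, Slc5a7, Gm3002 and Cd109. Sema6a, a semaphorin of axon guidance, was at 65.3 and 4.05, 50.5 and 14.1, and 12.5 and 3.67 CPM, a difference of -2.51.

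The replicate number also bears on comparisons between populations. Without a replicate term the common biological coefficient of variation was 0.334, and with the replicate block it was 0.251. Calls by edgeR (adjusted p under 0.05, fold over 1 on the log2 scale either way) numbered 683 (4.7%) between d0 and d3F without the block and 1320 (9.08%) with it, 678 of them shared. Between d3F and d5FS they numbered 224 (1.54%) and 918 (6.31%), with 224 shared. Between d0 and d5FS they numbered 3313 (22.8%) and 4296 (29.5%), with 3296 shared. Of the 159 genes that separated the replicate sets in every pair, 3, 2 and 17 were called in these comparisons without the block. With it, 31, 29 and 57 were called, in the same order. The 159 genes were chosen for their difference between the sets, so a gain with the block follows from that choice. Lars2, Rps16 and Hist1h2ap were called between populations in neither fit.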

How the data were processed

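RNA sequencing was analysed in 6 libraries of 3 populations, with 2 replicates each, grouped by the titles. Per the labels and the study's methods, the authors depleted ribosomal RNA, aligned reads to mm10 (GRCm38) with STAR and quantified genes with RSEM, whose versions are not given in the sources used here. The deposited expected counts (RSEM's estimated counts) were rounded to whole numbers. The deposited TPM values, already normalized by the authors to effective length and depth, were used only for shares and as an alternative scale, and the deposited FPKM column was not used. Of 24054 genes, 14539 passed filterByExpr. The replicate term was tested with edgeR 4.0.16 (glmQLFit and glmQLFTest, TMM, population as block, Benjamini-Hochberg over all genes tested, adjusted p under 0.05), coded replicate 2 minus replicate 1. Differences within a pair are on log2 CPM with a prior count of 2. DESeq2 1.42.0 was an alternative. DESeq2 gave no adjusted p for 2255 genes.

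The members, the 21 gene lists and the rules were chosen with earlier results of these data known. Named genes were Lars2, Rps16, Hist1h2ap and Rn45s, the 4 most abundant and the 2 most extreme tested members of each list, the 3 widest gaps in each pair, and genes said to be named after their values were seen. Part of the rule, the largest changes among called genes, named none, since edgeR called 0. The differences of the 3 pairs correlated across genes (Pearson r 0.314, 0.324 and 0.278), so the numbers were taken to pair the samples. Fragment length was taken as length minus effective length. Shared 50-base stretches were counted on both strands against GENCODE vM21 transcripts. Whether reads were counted by strand is not given in the sources used here, so overlapping genes (Rmrp and Ccdc107, Rpph1 and Ccnb1ip1) are uncertain. The p-values measure the spread between these libraries.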

Additional observations from a re-analysis of the deposited data

Results flagged for a closer look

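For 2 gene lists the median difference between the replicates pointed one way in 1 population and the other way in another, by over 0.5 on the log2 scale each way. Naive pluripotency genes had a median of 2.03 in d0 and of -0.57 in d3F. Fibroblast feeder markers had a median of 0.64 in d3F and of -1.01 in d5FS, where 8 of 14 genes were lower by over 1 (8.74% of all genes in that pair). Each population has 1 pair, and the difference between populations was not tested.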

How the results depend on the processing

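The count of 0 genes called became 2 with DESeq2 size factors (Rps16 and Mrpl12), 509 without the filter on low counts and 1512 by DESeq2. It was 0 to 2 when 1 pair was left out, with Lars2 called without d0, Hist1h2ap and Rps16 without d3F, and none without d5FS. It stayed at 0 with TMM on coding genes, with at least 10 counts in every sample and without the population block. On the log2(TPM + 0.01) scale, added after seeing the data, the medians of cluster histones and cytosolic ribosomal proteins became -0.13 and -0.52, and 0.06 and -0.33 with TPM rescaled without Snord22. Leaving out 1 pair gave medians of 0.58 to 0.95 for cluster histones, 0.54 to 1.68 for snoRNAs, 0.65 to 1.57 for the other small RNAs and 0.23 to 0.40 for cytosolic ribosomal proteins. Both low small RNA medians were those without d0. The span of the length trend was 1.08 without the filter, where the median over all genes was 0.16, and 0.63 to 0.83 without 1 pair. The replicate block lowered the coefficient of variation to 0.251 and raised the population calls to 1320 (d0, d3F) and 918 (d3F, d5FS), while those between d0 and d5FS stayed within 1.5 times.

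Among the named genes, Rn45s changed sign without the filter (-0.01), without d3F (-0.05) and without d5FS (-0.06), and H19 without the population block (-0.64). Leaving out 1 pair turned the sign within ranges of -0.36 to 0.14 for Hist1h2ao (positive without d0 and, at 0.11, without d3F), -0.97 to 0.96 for Snora75, -0.29 to 0.48 for Terc, -0.18 to 1.1 for H19 and -0.42 to 3.16 for Amd1. The cause was not tested. Depth limits the receptor genes, which held 1553 counts at most over 1452 genes.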
